A study of Mus musculus with 8 samples.

Results

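Professional antigen-presenting cells display peptides from engulfed proteins to helper T cells on MHC class II molecules, each a pair of an alpha and a beta chain. The invariant chain Cd74 escorts the pair to the endosome and blocks its groove until the chaperone H2-DM exchanges the last fragment of Cd74 for peptide, a step that H2-O restrains. The coactivator Ciita switches these genes on, and in the bone marrow they are known chiefly from dendritic cells, B cells, and cells of the monocyte lineage.

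The values below describe 10 genes of this pathway, chosen by symbol from a fixed list: the chains H2-Aa, H2-Ab1 and H2-Eb1, Cd74, the H2-DM genes H2-DMa, H2-DMb1 and H2-DMb2, the H2-O alpha chain gene H2-Oa, Ciita, and Cd86, a costimulatory ligand of T cell CD28. A probe belonged to a gene when its RefSeq accession mapped to that symbol, which gave 15 probes on 24 spots for 9 of the 10 genes, out of 41174 probes and 17302 genes tested in all. No probe was matched to H2-Eb1. Where a gene had several probes, the brightest on average represented it. That probe was above background in all 8 cultures for each of the 9 genes, so none of them entered through 1 group alone.

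Total RNA came from cultured bone marrow cells, depleted of mature lineages, of 4 Runx1 Δ/Δ mice (strain mixed C57Bl/6 and 129SvJ). The cells, named HSPCs (haematopoietic stem and progenitor cells) in the labels, were grown for 2 days in serum-free medium with mSCF, hFlt3 Ligand, hIL-11 and mIL-3. One culture of each mouse then received a retroviral control shRNA and another a Pcgf1 shRNA, followed by puromycin for 36 h, which gave 4 one-colour arrays per group. Pcgf1 is a subunit of the Polycomb complex PRC1.1. Both groups carry the Runx1 deletion, and no culture with intact Runx1 was part of the comparison. How the deletion was made, and the age and sex of the mice, are not given in the sources used here. Signals are log2 of the processed intensity, shifted so that the 75th percentile of an array is 0, and a change is the signal with the Pcgf1 shRNA minus that with the control shRNA. Levels are compared only within a probe.

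On the arrays 54.8% to 62.0% of spots were well above background. Pcgf1 itself read −0.24, −0.23, −0.45 and −0.01 with the control shRNA in mice 1 to 4 and −1.64, −1.63, −1.74 and −1.35 with the Pcgf1 shRNA, which left 39.0% of the signal (limma adjusted p 0.0199). All 7 markers fixed for stem and progenitor cells, among them Kit and Cd34, were above background on all 8 arrays. So were 16391 genes in all, against 17302 tested, so this detection is not particular to these markers. The arrays filled 2 slides, each holding both cultures of 2 mice. With limma (Benjamini-Hochberg over 17302 genes, adjusted p under 0.05), 107 genes were higher and 28 lower, or 52 and 25 with normexp background correction. With mouse as a block 507 were higher and 416 lower. Without a block, leaving out mouse 1, 2, 3 or 4 gave 1, 0, 0 and 364 genes (limma, 1672, 996, 1092 and 3967 at an unadjusted p under 0.05), and Pcgf1 passed only without mouse 4 (adjusted p 0.111, 0.355, 0.0891 and 0.0149).

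The start regions are shown first, because several members share a promoter layout that their selection did not use. In class II promoters the RFX complex binds an X box and NF-Y binds a Y box with the core ATTGG, which reads CCAAT on the other strand; together they recruit Ciita. RefSeq promoter sequences of assembly GRCm38.p6, covering 250 bases before to 50 after a start site, were at hand for 6 of the 10 genes. In the windows below, printed 5′ to 3′ on the strand of the gene, capitals mark ATTGG and, where found, the letters GNAAC of an X-like box upstream of it.

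H2-Aa: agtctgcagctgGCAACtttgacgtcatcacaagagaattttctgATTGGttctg
H2-DMb1: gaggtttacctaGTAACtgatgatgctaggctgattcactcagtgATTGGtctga
H2-DMb2: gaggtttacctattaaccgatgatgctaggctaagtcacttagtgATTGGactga
H2-Oa: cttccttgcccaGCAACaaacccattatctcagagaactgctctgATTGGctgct

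The windows lie at chr17:34287862-34287916 (minus strand) for H2-Aa, chr17:34153085-34153139 for H2-DMb1, chr17:34145114-34145168 for H2-DMb2 and chr17:34092291-34092345 for H2-Oa, the last 3 on the plus strand. Exactly 28 bases separated GNAAC from ATTGG in H2-Aa, H2-DMb1 and H2-Oa, and 27 in H2-Eb1, which is not printed. The search took GNAAC followed after 20 to 40 bases by ATTGG, on either strand, and 3.41% of 32851 promoters of the same length held such a pair, against 37.4% for ATTGG alone. These letters were chosen with the class II promoters in view. The pair was not in the H2-DMb2 window, although that window matched the H2-DMb1 window at 49 of 55 positions, nor in either of the start regions listed for H2-DMa. In the RefSeq annotation the 7 H2 genes follow each other on chromosome 17 in the order H2-Oa, H2-DMa, H2-DMb2, H2-DMb1, H2-Ab1, H2-Aa and H2-Eb1.

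With the Pcgf1 shRNA the signal was lower in 4 of 4 mice for 8 of the 9 measured genes, a pattern found in 16.3% of all genes. The mean differences ran from −0.41 for H2-DMb1 to −1.39 for H2-Aa, while H2-Oa stood at −0.08. Without a block 0 of the 9 passed an adjusted p of 0.05 (0.780% of all genes passed, 0.162% in the lower direction), and 5 were lower at an unadjusted limma p under 0.05 (5.51% of all genes). With each culture paired to the other culture of its mouse, H2-DMa, H2-DMb1, H2-DMb2 and Ciita fell (2.40% of all genes did), and 0 of the 9 passed with this block once any 1 mouse was left out (7 or 8 at an unadjusted limma p under 0.05). Over all 17302 genes, 4072 reached such a p in either direction with the block on all 4 mice. With the block and 1 mouse left out 2434 to 4745 did, and without a block 2098. The median over the 9 genes was −0.55, against 0.00 over all genes tested. In bulk RNA, fewer cells of a type and less RNA per cell cannot be told apart.

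**Figure D1:**
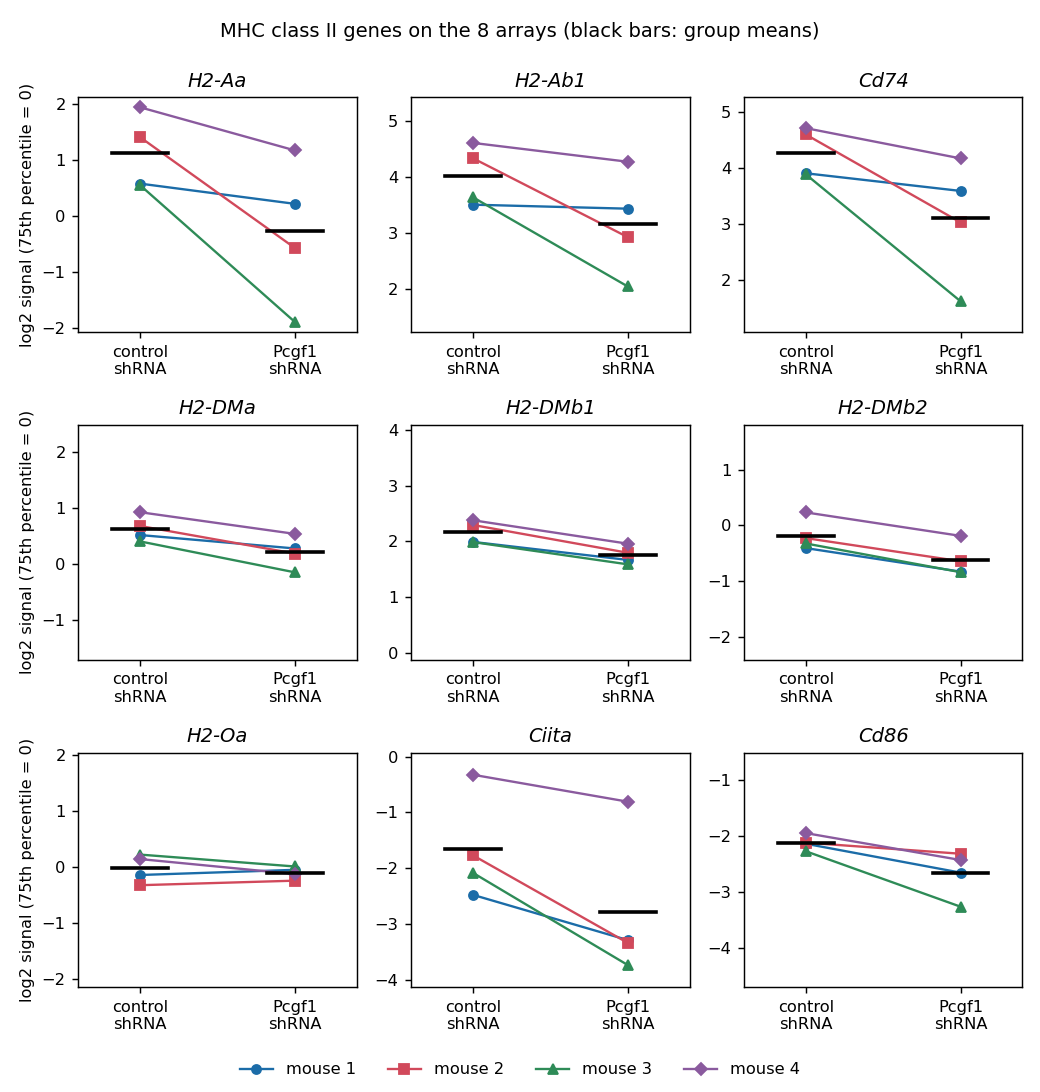
Log2 signal (75th percentile of the array = 0) of the 9 measured genes with the control shRNA and with the Pcgf1 shRNA, each line 1 mouse and each black bar a group mean; every panel spans the same number of log2 units. The lines of H2-Aa, H2-Ab1 and Cd74 are steep in mice 2 and 3 and shallow in mice 1 and 4, those of the H2-DM genes run nearly parallel, and those of H2-Oa are nearly flat.

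The within-mouse changes of the peptide-binding chains and the invariant chain varied most between mice (SD 0.985 for H2-Aa, 0.762 for H2-Ab1 and 0.913 for Cd74, at most 0.573 for the other 6 genes). H2-Aa, the alpha chain of the I-A molecule, read 0.58, 1.41, 0.55 and 1.94 with the control shRNA in mice 1 to 4, and 0.21, −0.58, −1.90 and 1.17 with the Pcgf1 shRNA. Mouse 4 was highest in both groups, so its culture with the Pcgf1 shRNA exceeded the control cultures of mice 1 and 3 and the groups overlapped. The mean difference was −1.39 (SE 0.63, limma adjusted p 0.430, or 0.0851 with mouse as a block), which is 2.62-fold lower. Within mice 2 and 3 the signal was 3.95-fold and 5.46-fold lower, and within mice 1 and 4 it was 1.29-fold and 1.71-fold lower.

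H2-Ab1, the beta chain that pairs with H2-Aa, read 3.51, 4.34, 3.64 and 4.62 with the control shRNA and 3.44, 2.93, 2.05 and 4.28 with the Pcgf1 shRNA. The differences within mice 1 to 4 were −0.07, −1.41, −1.60 and −0.34, and 3 of the 4 Pcgf1 shRNA arrays lay below the lowest control. The mean was −0.85 (SE 0.46, limma adjusted p 0.523, 0.143 with the block). The array carries another H2-Ab1 probe on 10 spots, whose intensity on an array varied with a coefficient of variation of 1.87% to 4.43%. On that probe the mean processed intensity of the 10 spots in mouse 3 was 3620 (3402 to 3836) with the control shRNA and 1450 (1404 to 1520) with the Pcgf1 shRNA. In mouse 1 the corresponding means were 3680 (3512 to 4046) and 2980 (2887 to 3162). After scaling of the arrays the difference on this probe was −1.64 in mouse 3 and −0.09 in mouse 1.

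Cd74, the invariant chain, read 3.90, 4.60, 3.88 and 4.71 with the control shRNA and 3.59, 3.02, 1.61 and 4.17 with the Pcgf1 shRNA. Its culture from mouse 3 was the lowest of all 8, and again mouse 4 kept the groups from separating. The mean difference was −1.18 (SE 0.51, limma adjusted p 0.404, 0.104 with the block), with −0.32, −1.57, −2.27 and −0.54 in mice 1 to 4. H2-Aa, H2-Ab1 and Cd74 thus shared the order of the mice, with the differences of mice 3 and 2 deepest in each.

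The H2-DM genes, which encode the peptide exchange chaperone, differed less but more evenly. H2-DMa, its alpha chain, read 0.51, 0.67, 0.40 and 0.92 with the control shRNA and 0.27, 0.18, −0.16 and 0.53 with the Pcgf1 shRNA. The mean difference was −0.42 (SE 0.17, limma adjusted p 0.367), and H2-DMa fell with mouse as a block (adjusted p 0.0457). H2-DMb1, a beta chain, read 1.99, 2.29, 1.99 and 2.38 against 1.67, 1.80, 1.59 and 1.96, so that its groups did not overlap. Its difference of −0.41 (SE 0.13, limma adjusted p 0.243) passed with the block (0.0341).

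H2-DMb2, the other beta chain gene, read −0.41, −0.23, −0.32 and 0.23 with the control shRNA and −0.83, −0.64, −0.84 and −0.19 with the Pcgf1 shRNA. The within-mouse differences lay between −0.41 and −0.51, the narrowest band of the 9 genes (SD 0.0478), with a mean of −0.44 (limma adjusted p 0.399, 0.0273 with the block). H2-DMb1 and H2-DMb2 are close paralogues, and whether a probe of 1 also binds the other was not tested. Differences of this size lean on the scaling of the arrays: before scaling, the H2-DMb2 intensity of mouse 2 was 444 and 433, and that of mouse 1 was 477 and 308. Under the alternatives tried, the H2-DMb2 mean stayed between −0.47 and −0.35 and that of H2-DMb1 between −0.44 and −0.37.

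H2-Oa, the alpha chain of the H2-DM inhibitor, read −0.14, −0.33, 0.22 and 0.14 with the control shRNA and −0.05, −0.25, 0.01 and −0.13 with the Pcgf1 shRNA. The groups overlapped throughout, with 0 of the 4 Pcgf1 shRNA arrays below the lowest control. The difference was −0.08 (SE 0.13, 95% interval −0.38 to 0.23, limma adjusted p 0.870), split by slide into 0.09 for mice 1 and 2 and −0.24 for mice 3 and 4. The H2-Oa window printed above holds GNAAC and ATTGG at the same distance as those of H2-Aa and H2-DMb1. Its partner gene H2-Ob, from a list of further class II genes, was above background on 4 arrays at most and was not tested, and neither was H2-Eb2. Brd2, a bromodomain gene of the same region, stood at −0.09 (limma adjusted p 0.823).

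Ciita, the coactivator of class II transcription, read −2.48, −1.77, −2.08 and −0.32 with the control shRNA and −3.28, −3.33, −3.73 and −0.81 with the Pcgf1 shRNA. Both cultures of mouse 4 lay far above the other 6, and the remaining 3 mice separated fully by shRNA. The mean difference was −1.13 (SE 0.70, limma adjusted p 0.579), a 2.18-fold lower signal, and Ciita fell once the cultures were paired by mouse (limma adjusted p 0.0452). With normexp background correction the mean was −0.69. Without mouse 4 the difference was −1.34 and passed without a block (limma adjusted p 0.0405). Within mice 1 to 4 it was −0.81, −1.57, −1.65 and −0.48.

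Cd86 read −2.14, −2.12, −2.27 and −1.95 with the control shRNA and −2.66, −2.32, −3.27 and −2.43 with the Pcgf1 shRNA. On the brighter of its probes the groups did not overlap, as was so for 2 of the 9 genes (Cd86 and H2-DMb1) and 2.91% of all genes in the same direction. The difference was −0.55 (SE 0.20, limma adjusted p 0.320, 0.0755 with the block), or −0.36 with normexp. Before scaling, mouse 2 went the other way, from an intensity of 119 to 136. On the second Cd86 probe the groups overlapped, with 3 of the 4 Pcgf1 shRNA arrays below the lowest control.

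**Figure D2:**
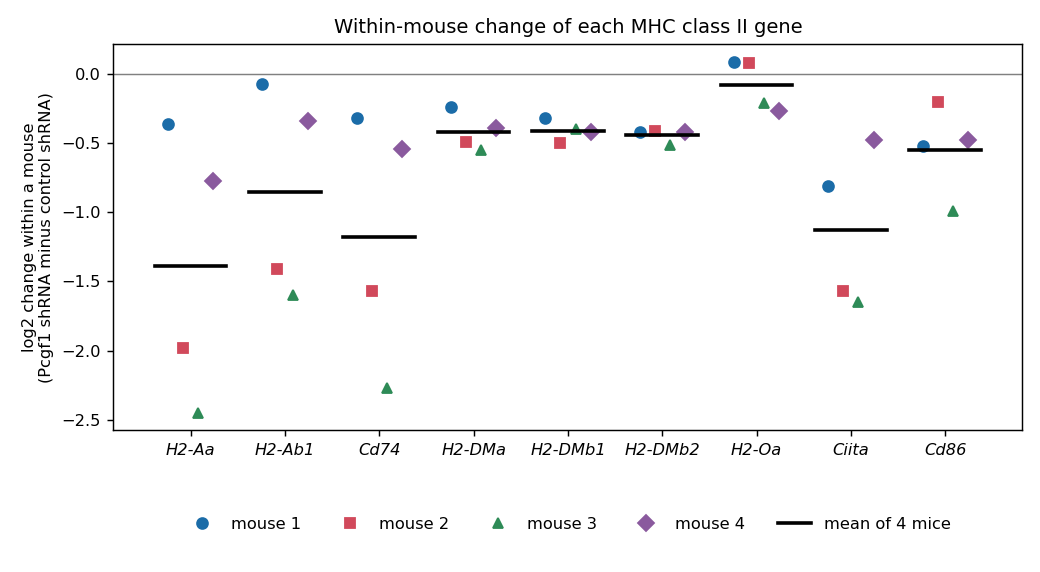
Log2 change within each mouse (Pcgf1 shRNA minus control shRNA) of the 9 measured genes, with a symbol for each mouse and a black bar for the mean. Mice 2 and 3 sit far below mice 1 and 4 for H2-Aa, H2-Ab1 and Cd74, whereas the H2-DMb2 points lie between −0.41 and −0.51.

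The size of the difference varied between the members. Within a mouse, the H2-Aa change minus the H2-DMa change was −0.12, −1.49, −1.89 and −0.38 in mice 1 to 4 (mean −0.97, SD 0.854). H2-DMa in turn lay below H2-Oa in 4 of 4 mice (mean −0.34, SD 0.186), and H2-DMa and H2-DMb1 differed by −0.01 (SD 0.102). An exact sign-change test over 4 mice cannot go below p = 0.125, so these differences are given as values. The median over the 9 genes was −0.32, −0.50, −0.99 and −0.42 in mice 1 to 4, where the median of all genes was 0.04, 0.01, 0.00 and −0.05.

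The control cultures already differed between mice in a repeated order. Mouse 4 had the highest control signal for 8 of the 9 genes and mouse 2 the second highest for the same 8, the exception being H2-Oa, where mouse 3 was highest. With the Pcgf1 shRNA mouse 3 had the lowest signal for these 8 genes, and mouse 4 the highest for 7 of them, Cd86 being highest in mouse 2. Over the 8 arrays, which come in pairs of 1 mouse, Pearson's r among these 8 genes was 0.673 to 0.992 (28 pairs, median 0.883). Between H2-Oa and each of the 8 it was −0.083 to 0.21.

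Probes of the same gene gave like values where they were bright enough. The second H2-Aa probe differed by −1.31 on average, the other H2-Ab1 probes by −0.94 and −0.97, the second Cd86 probe by −0.66 and the second H2-Oa probe by −0.06. The second H2-DMb2 probe was above background on 3 control arrays and 1 Pcgf1 shRNA array and was left out of the test. Its difference was −0.73 (SD 0.404), and both arrays of mouse 4, at −2.67 and −3.42, stood above the rest, which lay between −6.14 and −4.99. The brighter H2-DMb2 probe showed no such gap.

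**Figure D3:**
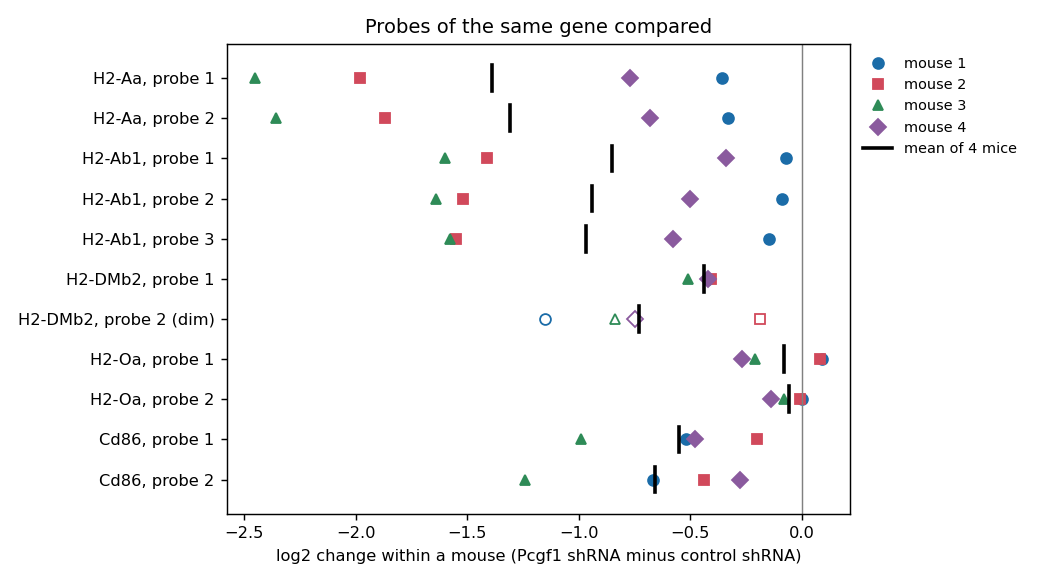
Log2 change within each mouse for every probe of the 5 genes with more than 1 probe; filled symbols are probes that entered the filtered set, open symbols the dim H2-DMb2 probe, black bars the mean of 4 mice. The probes of H2-Aa and those of H2-Ab1 place the mice at nearly the same values, while the dim H2-DMb2 probe scatters from −0.19 to −1.15.

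Further genes of antigen handling were read from lists chosen apart from the members. Of 12 genes for peptide loading and trafficking 0 passed limma without a block (3 at an unadjusted p under 0.05). With mouse as a block 3 fell and 0 rose, and the median change was −0.32. Marchf1, the ubiquitin ligase that removes class II molecules from the cell surface, stood at −1.21 (SE 0.23, limma adjusted p 0.0623, 0.0341 with the block). Cd82, a tetraspanin of endosomes that hold class II, stood at −0.49 (adjusted p 0.117, 0.0323 with the block). Ctss, the protease that trims Cd74, read −0.49, −1.49, −2.30 and −0.78 in mice 1 to 4, again deepest in mice 3 and 2, with a mean of −1.27 (limma adjusted p 0.290, 0.0691 with the block). Ctsb, another endosomal protease, stood at −0.57 and fell with the block by a narrow margin, its adjusted p rounding to 0.05.

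Costimulatory genes beside Cd86 had 5 measured members, with a median change of −0.50. Of these 0 passed limma either way (2 without and 4 with the block at an unadjusted p under 0.05, against 2098 and 4072 of all 17302 genes). Cd80, which like Cd86 is a ligand of CD28 on T cells, differed by −0.36. The inhibitory ligands Cd274 and Pdcd1lg2 differed by −0.57 and −0.50, and Cd83, which stabilises class II at the surface, by −0.95 (limma adjusted p 0.644). Among 15 measured regulators of class II transcription 0 passed limma without a block (2 at an unadjusted p under 0.05) and 1 fell with it, at a median change of −0.11. That gene was Irf8, a factor of dendritic cell and monocyte development (−0.47, limma adjusted p 0.220, 0.0495 with the block). Rfxank, of the X box complex, stood at −0.21 and Nfya, of the Y box complex, at −0.11. Prdm1, a repressor of Ciita, stood at −1.18 (limma adjusted p 0.267), with −0.05 in mouse 1 and −2.63 in mouse 3. Its mean was −0.42 with normexp and −0.70 without mouse 3. Prdm1 was above background on 4 control and 3 Pcgf1 shRNA arrays, so it entered only through the group where it was high. Over the 14 regulators above background on all 8 arrays the median was −0.09.

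MHC class I presentation, which shows peptides from the cytosol to killer T cells, did not share the sign. Of its 12 measured genes 0 passed limma with or without the block (4 in each fit at an unadjusted p under 0.05, against 4072 and 2098 of all 17302 genes). Of the 12, 7 lay above 0 and 5 below, and the median change was 0.10. The peptide transporters Tap1 and Tap2 stood at 0.21 and 0.31, the immunoproteasome subunit Psmb8 at 0.32 and the chaperone Calr at 0.32 (limma adjusted p 0.396, 0.200, 0.379 and 0.300). Each of these 4 was higher in 4 of 4 mice, but they were named for the smallest p of the list, a choice that favours an even sign. The class I chains H2-K1, H2-D1 and B2m stood at −0.08, −0.17 and −0.06 (limma adjusted p 0.875, 0.782 and 0.899).

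**Figure D4:**
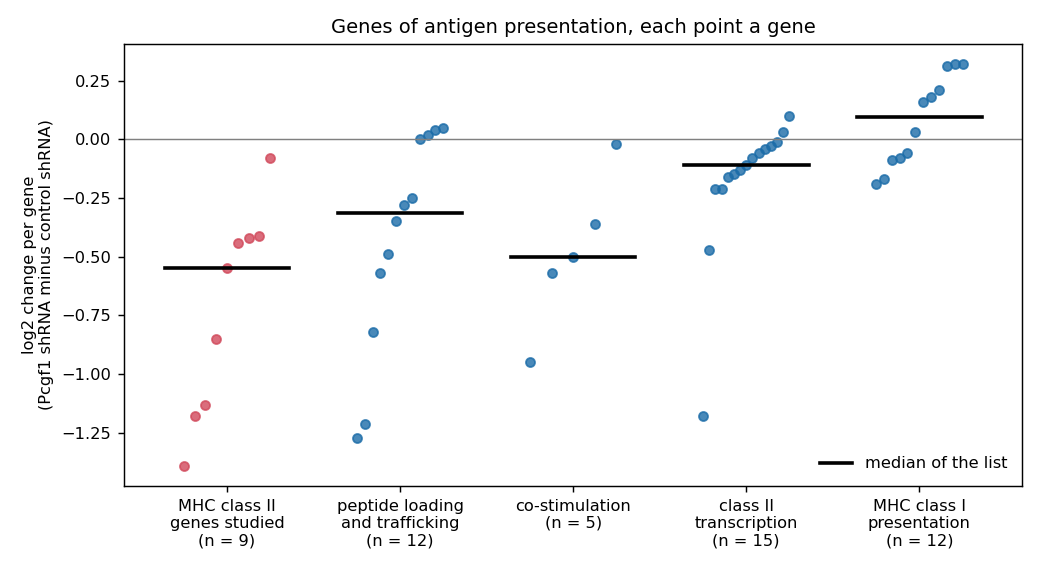
Log2 change (Pcgf1 shRNA minus control shRNA) of each measured gene in 5 lists, each point a gene and each bar the list median. The medians are −0.55 for the class II genes studied, −0.32 for peptide loading and trafficking, −0.50 for costimulation, −0.11 for class II transcription and 0.10 for class I presentation.

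Markers of cells that carry class II were read from the same arrays, and their part in the values above was not tested. Of 9 dendritic cell markers with a probe 7 were measured, at a median change of −0.39. Of these 0 passed limma without a block (1 at an unadjusted p under 0.05), and with the block 2 fell, Zbtb46 (−0.69, adjusted p 0.0265) and Ccr7 (−0.79, adjusted p 0.0462). Among the others, Flt3 and Xcr1 stood at −0.03 and −0.08, Batf3 at −0.39 and Tcf4 at 0.28, with Tcf4 higher by 0.47 and 0.61 in mice 2 and 3. The summed linear signal of the 7, in units of the 75th percentile of an array, was 3.81 to 5.53 with the control shRNA and 2.43 to 4.74 with the Pcgf1 shRNA. Mouse 4 had the highest sum in both groups and mouse 3 the lowest with the Pcgf1 shRNA. Itgax, the integrin CD11c, differed within mice 1 to 4 by −0.12, −1.66, −2.08 and −0.46 (mean −1.08, limma adjusted p 0.386). This is the same order of mice as for Cd74, but it was not particular to dendritic cell markers. The B cell marker Blnk shared it, at −0.38, −1.97, −2.35 and −0.66 (mean −1.34, limma adjusted p 0.413). The dendritic cell markers Cd209a and Siglech were above background on 2 arrays at most.

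Of 8 B cell markers 5 were measured, and Pax5, Ebf1 and Ms4a1, which define the lineage, were above background on 0 arrays. The 5 had a median change of −0.34. Of them 0 passed limma either way (2 without and 5 with the block at an unadjusted p under 0.05, against 2098 and 4072 of all 17302 genes). The sum of the 5 was 2.17 to 2.66 with the control shRNA and 1.61 to 1.84 with the Pcgf1 shRNA. Cd22 was above background on 4 control and 2 Pcgf1 shRNA arrays, so it entered only through the group where it was high. Over the 3 markers above background on all 8 arrays the median was −0.34. Of 9 monocyte and macrophage markers with a probe 8 were measured, at a median change of −0.44, and Ccr2 among them fell with the block (−1.21, limma adjusted p 0.0342). Cx3cr1 among the 8 also entered only through the control group (4 control and 2 Pcgf1 shRNA arrays). Over the 7 above background on all 8 arrays the median was −0.47. The sum of the 8 was 23.1 to 49.9 with the control shRNA and 22.4 to 45.3 with the Pcgf1 shRNA, lowest in mouse 4 in both groups. Bright genes weigh most in such a sum, and its part in the class II values was not tested. The 3 measured T cell markers had a median of −0.12, and Lck among them rose (0.91, limma adjusted p 0.0338), as did 0.618% of all genes.

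Of 8 measured markers of maturing neutrophils, which are not a main source of class II in the marrow, Ltf and Ngp were above background on 4 control arrays and 0 Pcgf1 shRNA arrays, so they entered only through the group where they were high and are left out here. The other 6 had a median change of −1.44. Of these 0 passed limma without a block (4 at an unadjusted p under 0.05), and Camp, S100a8, S100a9 and Mmp8 fell with it. In mice 1 to 4 the median of the 6 was −0.90, −1.49, −1.79 and −1.46, deepest in mouse 3 as for the class II genes, and its part in the class II values was not tested.

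The 7 stem and progenitor markers had a median of 0.11. Cd34 rose without a block (0.94, limma adjusted p 0.0262). With the block Cd34 and Meis1 rose (Meis1 0.79, adjusted p 0.0322) and Ly6a, which encodes Sca-1, fell (−0.68, adjusted p 0.0288). The 4 mast cell and basophil markers had a median of −0.04.

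**Figure D5:**
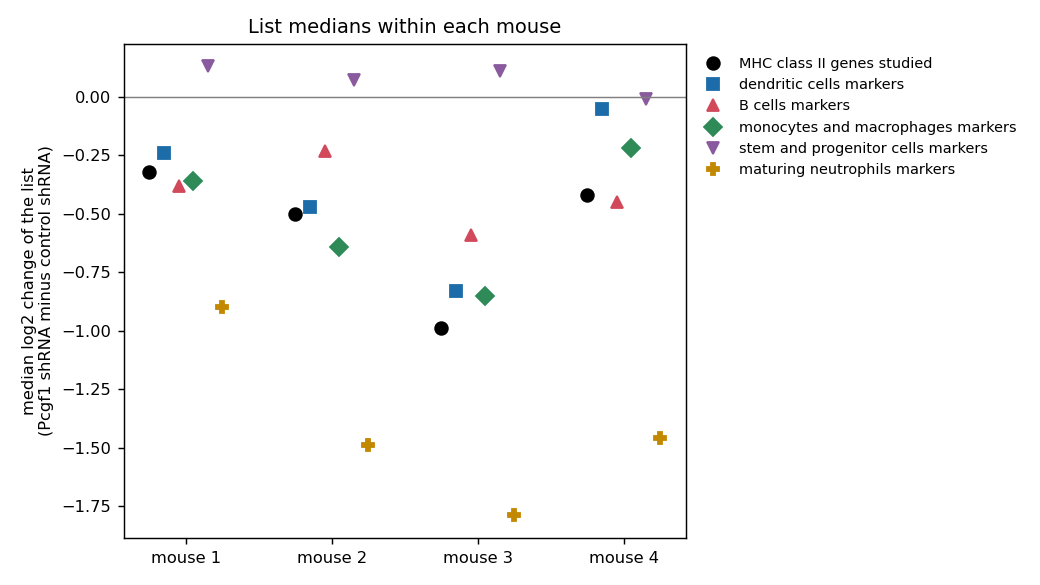
Median log2 change within each mouse (Pcgf1 shRNA minus control shRNA) for the 9 class II genes and 5 marker lists, each symbol the median of 1 list in 1 mouse over the genes above background on all 8 arrays. Except for the stem and progenitor markers, each median is lowest in mouse 3, at −0.99 for the class II genes, −0.83 for dendritic cells and −1.79 for neutrophils.

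The genes whose 8 array values most resembled the mean standardised profile of the 9 class II genes were Tango2 (Pearson's r 0.994), Car7, a carbonic anhydrase (0.988), Zkscan14 (0.988), Unc5cl (0.987), Acp5, the tartrate-resistant phosphatase of osteoclasts and macrophages (0.987), and Afmid, an enzyme of tryptophan breakdown (0.986). They were the top 6 with a symbol among 17254 ranked, and 1 transcript without a symbol ranked among them. Acp5 differed by −0.50, −1.50, −1.89 and −1.06 in mice 1 to 4. The most opposed profiles were those of Trerf1 (−0.998), Mlkl, the effector of necroptosis (−0.994), and Parp8 (−0.993), which were higher by 0.35, 0.30 and 0.43. These coefficients describe 8 arrays from 4 mice, and none of the 9 genes passed without a block. The profile also includes H2-Oa, whose r with each other class II gene was only −0.083 to 0.21.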

How the data were processed

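Spot files were made by the authors with Agilent Feature Extraction 10.1 per the submitters' processing notes. Per the file headers their intensity values were corrected for local background and detrended across the array, and arrays were not normalized to each other. The value table, as deposited, is on a log2 scale. Differences between its columns matched those of the scaled spot files (r and slope 1.00 over 10069 bright probes), each probe is centred on its median over the arrays, its column medians were 0.05, 0.11, 0.10 and −0.13 (control) and 0.10, −0.05, −0.11 and −0.20 (Pcgf1 shRNA) in mice 1 to 4, and its floor for low values is unknown. The table served as an alternative.

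Control spots and 242 non-uniform spot values were left out, and spots of a probe were averaged. Probes entered if called well above background across a whole group (22746 of 41174). Of the 41174 probes 24375 were named through RefSeq accessions (GRCm38.p6). The test was limma 3.58.1 under R 4.3.3, dropping left-out values, and the fit was tested on simulated data. Arrays of the same mouse deviated together (r 0.44, 0.48, 0.41 and 0.64), the pairing being by animal. Only 4 mice limit precision. The members and lists were chosen with earlier results of these data known. The text names all members, Pcgf1, the 4 genes of smallest p in each pathway list and the 6 most and 3 least alike profiles. Marker genes, H2-K1, H2-D1, B2m and Acp5's values were picked after being seen. Alternatives covered the mouse and slide blocks, slides alone, quantile and normexp processing (on median signals), the dim-probe filter, the probe rule, array weights and leaving out each mouse.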

Additional observations from a re-analysis of the deposited data

Results flagged for a closer look

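Each of 27 sets of 4 values (the control arrays, the Pcgf1 shRNA arrays and the within-mouse changes of the 9 genes) was examined for 1 value far from the other 3 by Dixon's criterion, and 2 sets had one; chance alone gives about 1 in 20. Among the Pcgf1 shRNA arrays Ciita in mouse 4 read −0.81 where the other 3 read −3.73 to −3.28. For H2-DMb2 the within-mouse change of mouse 3 was −0.51 where the other 3 were −0.42 to −0.41, a gap of less than 0.1 log2 units that stands out because the others nearly coincide.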

How the results depend on the processing

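With mouse as a replicate block 923 genes passed in place of 135, and 4 of the 9 class II genes (H2-DMa, H2-DMb1, H2-DMb2 and Ciita) in place of 0. The counts over all genes were 77 with normexp, 1153 with array weights and 0 without the filter on dim probes (limma, 2192 at an unadjusted p under 0.05), where 32969 genes were tested. Leaving out 1 mouse gave 0 to 364 genes, with 0 when mouse 2 or 3 was left out without a block (limma, 996 and 1092 unadjusted) and 364 without mouse 4. With the replicate block it gave 275 without mouse 1, 305 without mouse 3, 142 without mouse 4 and 0 without mouse 2 (limma, 2434 unadjusted). Leaving out 1 mouse called 0 to 1 of the class II genes, the 1 being Ciita without mouse 4. H2-Oa changed sign on the slide of mice 1 and 2 alone, at 0.09; no other class II gene did under any alternative run. Of 171 comparisons of a class II gene with its value under an alternative, 165 counted as unchanged, 5 crossed the threshold and 1 reversed. Those on a slide alone had no test, so only their direction could change. The median change of the 9 genes lay between −0.74 (slide of mice 3 and 4) and −0.41 (array weights). The Pcgf1 call itself was lost without the filter (adjusted p 0.102) and without mouse 1, 2 or 3 (0.111, 0.355 and 0.0891; with the block only without mouse 2, 0.0957), at a change of −1.38 to −1.34. The causes were not tested. The number of genes or arrays entering the fit also differed between some of these alternatives, and its part was not tested separately. The dim H2-DMb2 probe, H2-Ob and H2-Eb2 were limited by signal near background. With 4 mice, changes well above their standard errors could miss the threshold, as for H2-DMb1 without a block (−0.41, SE 0.13, limma adjusted p 0.243).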
